A study of Mus musculus with 6 samples.

Results

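The genes described here encode the machinery that brings new secretory and membrane proteins to the endoplasmic reticulum (ER), passes them through or into its membrane and removes their signal peptides. They were 35 genes given by name, chosen by function, and all 35 passed the limit on low values, a mean of 10 normalised counts over 6 libraries, as did 13199 of the 55291 gene symbols in the table. The lowest mean among them, that of Sec11c, was far above that limit, so the limit removed no gene of the set. The genes were read by complex. These were the signal recognition particle (SRP) and its receptor with 8 genes, the Sec61 channel and its associated factors with 8, the translocon-associated protein complex (TRAP) with 4, signal peptidase with 5, tail-anchor targeting factors with 2 and the ER membrane protein complex (EMC) with 8.

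RNA was sequenced from cells of the mouse lung cancer line LLC (Lewis lung carcinoma), in 3 Calr KO and 3 control libraries. Calr KO cells had received plasmids for Cas9 and a guide RNA against Calr, which encodes the ER chaperone calreticulin, and control cells (genotype label WT) had received Cas9 with a control guide. Both groups were otherwise untreated, were kept in culture for 10 days after the plasmids were introduced and were collected 48 hours after seeding. Each group was seeded as 3 wells of the same transduced cells, with no cloning step named, so p-values measure the spread between wells and not between independent knockouts. All 6 libraries carry the same batch label and were made with a SMARTer mRNA-Seq kit.

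Most secreted proteins start on free ribosomes. SRP binds the signal sequence as it emerges, and its receptor docks the ribosome at the Sec61 channel, which lets the chain cross the membrane or move sideways into it. TRAP helps some signal sequences to open the channel, and signal peptidase cuts them off on the lumenal side. Proteins with a single anchor at their end reach the ER through tail-anchor factors or the EMC, an insertase that also places parts of multi-spanning proteins. Because the lumenal chaperone BiP helps to pull chains through the channel, these genes stand next to the folding machinery in the secretory pathway.

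Calr itself was 2.43-fold lower in Calr KO cells, with 4467, 4216 and 4453 normalised counts in Calr KO libraries, against 10711, 10202 and 11047 in control libraries (log2 change -1.28, limma adjusted p = 7.9e-07), so transcript remained in every Calr KO library. The libraries summed to between 14040692 and 14099985 normalised counts. Of 13199 genes tested with limma, 26 rose and 11 fell, which is 0.280% in all, 0.197% higher and 0.0833% lower. The lung epithelial markers Nkx2-1, Sftpc, Scgb1a1 and Epcam were listed at 0 in all libraries, while the keratin gene Krt8 averaged 4770 normalised counts in Calr KO libraries and 4472 in control libraries. The summed markers of lung epithelium were between 4962 and 5241 in Calr KO and between 4637 and 4932 in control libraries, and their part in the results below was not tested. Macrophage markers summed to 65.1 to 114 in Calr KO and 75.5 to 97.1 in control libraries, lymphocyte markers to at most 4.09 in any library, endothelial markers to 57.0 to 66.5 against 47.6 to 70.6, and fibroblast markers, mostly Pdgfra, to 1929 to 2249 against 1781 to 2247. Of the 33 markers in these 5 lists, 23 were under the limit on low values, and 0 of the 10 tested passed. In RNA from whole wells, a lower level in each cell and fewer cells with the transcript cannot be told apart.

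None of the 35 genes passed the test over all genes, against 0.280% of all tested genes, and none passed with voom weights. The smallest limma adjusted p was 0.138, for Spcs3. At an unadjusted p under 0.05 there were 7 genes with higher values in Calr KO cells, 20.0% of the 35, against 4.60% of all tested genes, and 0 with lower values, against 4.28% of all tested genes. These 7 were Spcs3, Spcs2 and Sec11c of signal peptidase, Sec61a1, Sec63 and Tram1 at the channel, and the targeting factor Get4. In 10 of the 35 genes, 28.6%, all 3 Calr KO libraries lay above all 3 control libraries, against 7.57% of all tested genes, and in 1, Sec61b, all 3 lay below, against 7.28%. The log2 change was above 0 in 26 of the 35, against 50.1% of all tested genes. The median log2 change of the 35 was 0.05, against 0.00036 over all tested genes. Signal peptidase held 4 of the 10 genes without overlap. Leaving its 5 genes aside, the other 30 had 6 genes above and 1 below without overlap, and a median of 0.03.

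In 33 of the 35 genes the 95% interval of the log2 change lay between -0.5 and 0.5. The exceptions were Sec11c, whose interval ran from 0.23 to 0.70, and Emc8, with -0.30 to 0.51. Of all 13199 tested genes, 9061 had an interval within these bounds. The count was 7081 of the 7426 genes with a mean of at least 300, a level that all 35 reached. The median standard error was 0.07 over the 35 genes, 0.10 over all tested genes and 0.07 over those 7426.

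**Figure D1:**
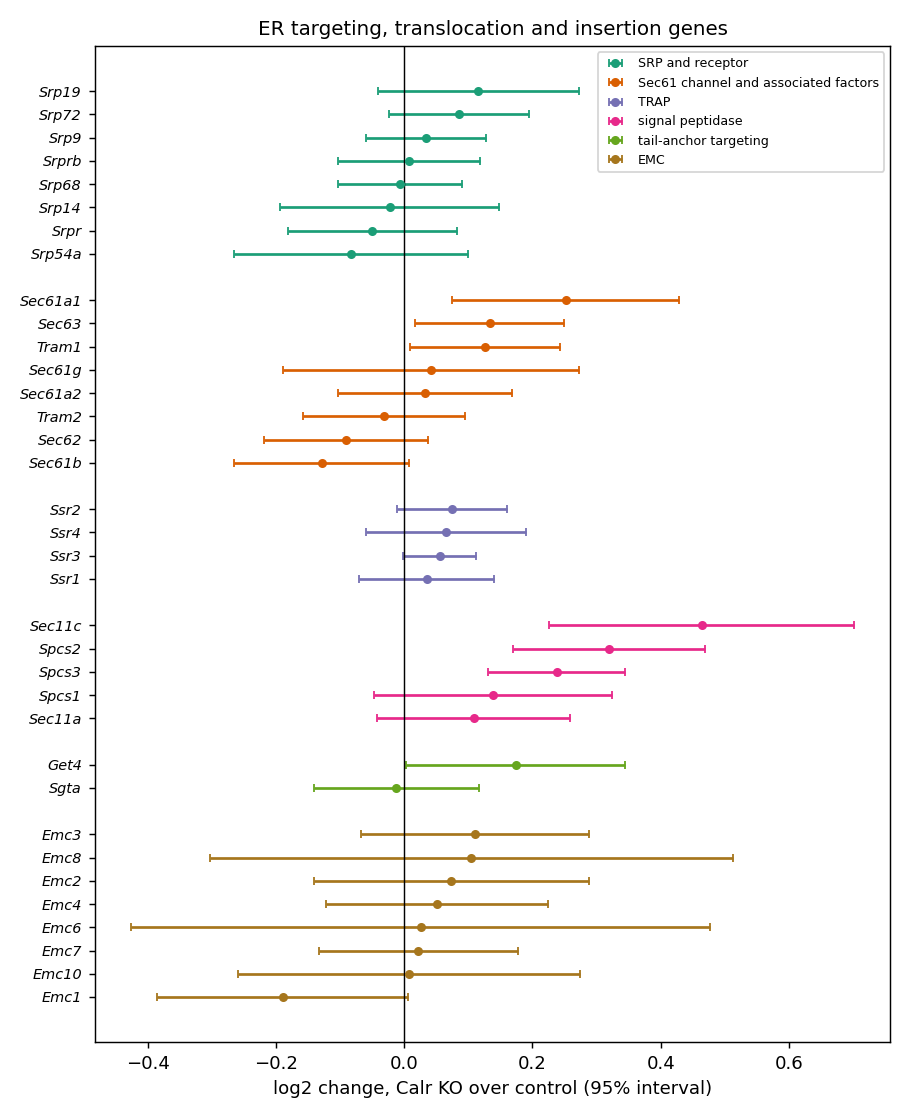
Log2 change of each of the 35 genes, Calr KO over control, on the log2(value + 1) scale, grouped by complex. Points are limma estimates and bars 95% intervals, unadjusted for the number of genes. The 5 signal peptidase genes lie to the right of 0, from 0.11 to 0.46, while the SRP genes lie on both sides of it.

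Signal peptidase was the complex with the largest median, 0.24. All 5 of its genes had a log2 change above 0, against 50.1% of all tested genes. The enzyme has a catalytic subunit, either Sec11a or its paralog Sec11c, and the accessory subunits Spcs1, Spcs2 and Spcs3. Of the 5, 0 passed the test over all genes, against 0.280% of all tested genes. At an unadjusted p under 0.05 there were 3 with higher values, against 4.60% of all tested genes.

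Spcs2 lies on the minus strand of chromosome 7 (GRCm38, 99837569 to 99863462). It had 1988, 1849 and 2138 normalised counts in Calr KO libraries, against 1590, 1498 and 1697 in control libraries. Every Calr KO library was above every control, and the log2 change was 0.32 (SE 0.07, 95% interval 0.17 to 0.47, limma adjusted p = 0.158). Spcs3, the accessory subunit needed for cleavage in yeast, lies on the minus strand of chromosome 8 (54520433 to 54529998). It had 3698, 3516 and 3940 normalised counts in Calr KO libraries, against 3135, 3077 and 3237 in control libraries, again with no overlap. Its log2 change was 0.24 (SE 0.05, 95% interval 0.13 to 0.34, limma adjusted p = 0.138), a mean of 3718 ± 212 against 3149 ± 80.9 (SD, n = 3 each). Arxes1 and Arxes2, which are retrocopies of Spcs3, were listed at 0 in all 6 libraries.

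The catalytic paralogs were both higher in all 3 Calr KO libraries, by different amounts. Sec11c had 429, 401 and 377 normalised counts in Calr KO libraries, against 302, 255 and 320 in control libraries, a mean of 403 ± 25.8 against 292 ± 33.5 (SD, n = 3 each). Its log2 change of 0.46 was the largest among the 35 genes (SE 0.11, limma adjusted p = 0.194). Sec11a had 535, 512 and 534 normalised counts in Calr KO libraries, against 487, 485 and 495 in control libraries, and its log2 change was 0.11 (SE 0.07, limma adjusted p = 0.708). The log2 ratio of Sec11c over Sec11a was -0.39 ± 0.10 in Calr KO and -0.75 ± 0.16 in control libraries (SD, n = 3 each), without overlap, a difference of 0.36. The two-sided exact permutation p was 0.1, the smallest that 3 against 3 allows, and 0.133 after adjustment over the 4 paralog pairs compared. Spcs1 had 630, 618 and 534 normalised counts in Calr KO libraries, against 552, 515 and 549 in control libraries. The third Calr KO library lay among the controls, and the log2 change was 0.14 (limma adjusted p = 0.695). About 16.3% of its annotated exon bases overlap Glt8d1 on the other strand.

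**Figure D2:**
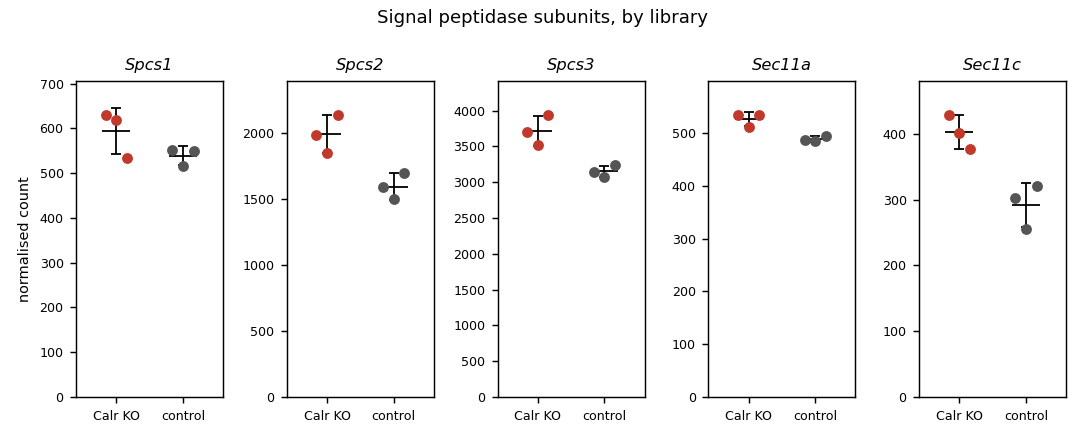
Normalised count of the 5 signal peptidase genes in each library, with Calr KO on the left and control on the right of each panel, and the mean and SD (n = 3 each). Calr KO and control points do not overlap for Spcs2, Spcs3, Sec11a and Sec11c, and overlap for Spcs1.

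The mean log2 level of the 5 genes, relative to the control mean, was 0.29, 0.22 and 0.25 in the Calr KO libraries and 0.01, -0.08 and 0.06 in the controls. Mitochondrially encoded genes, often read as a measure of RNA quality, took 2.82%, 2.85% and 2.91% of the signal in the same Calr KO libraries and 2.75%, 2.73% and 2.72% in the controls, and its part in these values was not tested. The median change of signal peptidase lay between 0.21 and 0.28 without each library in turn, and all 5 genes had a change above 0 in each of the 18 alternative fits. For 4 of the 5 the groups did not overlap, so leaving out a library could not turn their sign. Fits with another filter or variance prior left the changes as they were.

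The promoters of the genes were read for the elements through which ATF6 and XBP1, transcription factors of the unfolded protein response, are known to act at ER chaperone genes. RefSeq promoter windows on GRCm38.p6, from 250 bases before to 50 after the start site, were matched by symbol for 26 of the 35 genes, with 29 windows. Of signal peptidase, 3 of 5 genes had a window, and Spcs3 and Sec11c were not searched. Sec61a1 and Tram1, also among the genes with an unadjusted p under 0.05, had no window either. The ER stress element ERSE was searched as CCAAT followed by CCACG with 9 bases between them, ERSE-II as ATTGG followed by CCACG with 1 base between them, and the element called UPRE by its core TGACGTG, all on both strands. Of the 26 genes searched, none held ERSE or ERSE-II, and Srpr alone held the UPRE core. Over all 32851 windows, 0.119% held ERSE, 0.0365% ERSE-II and 2.01% the UPRE core. Counted by gene, the shares were 0.137%, 0.0444% and 2.22% of 27025 genes. In the list of BiP and its partners, Hspa5 and Dnajc3 of 5 matched genes held ERSE, Dnajb11 held ERSE-II and Hspa5 held the UPRE core. Hyou1 and Sil1 of that list had no window. ERSE-II was also found in Krtcap2 of the oligosaccharyltransferase list (log2 change 0.07, limma adjusted p = 0.838), and the UPRE core in Rab5if, an insertion gene outside the 35 (log2 change -0.07, limma adjusted p = 0.856). A match of letters is a description and not a bound site, and a missing match says only that these letters are absent from this window.

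The 250 bases before the start site are shown for 3 signal peptidase genes and, beside them, for both genes with ERSE, so that the spacing of its parts can be seen. Sequences run 5′ to 3′ on the strand of the gene, and capitals mark CCAAT and CCACG on either strand, the letters that ERSE and ERSE-II share. A stretch of this length held CCAAT in 33.8% of all windows, CCACG in 28.3% and both in 9.26%.
Spcs1, chr14:31001667-31001916, minus strand: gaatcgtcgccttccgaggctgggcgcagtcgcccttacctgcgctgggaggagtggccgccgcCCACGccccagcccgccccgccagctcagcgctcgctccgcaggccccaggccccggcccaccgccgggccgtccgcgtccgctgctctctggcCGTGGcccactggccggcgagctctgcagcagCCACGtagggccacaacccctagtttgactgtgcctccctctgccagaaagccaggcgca
Spcs2, chr7:99858884-99859133, minus strand: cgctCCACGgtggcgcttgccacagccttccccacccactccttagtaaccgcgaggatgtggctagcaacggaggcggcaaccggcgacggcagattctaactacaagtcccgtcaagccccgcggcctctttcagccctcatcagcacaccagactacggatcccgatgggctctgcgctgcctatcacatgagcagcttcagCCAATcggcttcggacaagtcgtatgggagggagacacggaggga
Sec11a, chr7:80947551-80947800, minus strand: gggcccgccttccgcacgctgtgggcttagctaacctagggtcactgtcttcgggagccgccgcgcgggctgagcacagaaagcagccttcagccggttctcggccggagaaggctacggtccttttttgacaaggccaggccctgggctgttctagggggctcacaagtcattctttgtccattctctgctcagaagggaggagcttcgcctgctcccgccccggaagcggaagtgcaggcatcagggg
Hspa5, chr2:34771840-34772089, plus strand: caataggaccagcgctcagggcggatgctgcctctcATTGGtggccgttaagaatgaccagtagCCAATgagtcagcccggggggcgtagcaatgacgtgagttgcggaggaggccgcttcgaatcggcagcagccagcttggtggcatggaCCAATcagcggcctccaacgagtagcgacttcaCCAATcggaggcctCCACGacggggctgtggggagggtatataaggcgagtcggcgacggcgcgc
Dnajc3, chr14:118937682-118937931, plus strand: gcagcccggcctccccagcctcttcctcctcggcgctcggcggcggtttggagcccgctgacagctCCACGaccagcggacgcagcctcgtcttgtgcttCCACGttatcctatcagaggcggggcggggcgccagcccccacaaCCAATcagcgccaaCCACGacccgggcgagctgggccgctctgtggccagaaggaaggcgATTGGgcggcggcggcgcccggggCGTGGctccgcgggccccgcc

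Spcs1 held 3 copies of CCACG and 0 of CCAAT, and Sec11a held neither. Spcs2 held 1 of each, with CCACG far upstream of CCAAT, the reverse of their order in ERSE. In Hspa5 the last CCAAT and the CCACG are the ends of the ERSE match, which starts at position -65 and ends at -47 from the start site, and in Dnajc3 the match runs from -105 to -87. For Spcs1, Spcs2, Sec11a and Srpr the start of the annotated gene in GENCODE lies farther upstream than the RefSeq start used here. The stretches printed for Spcs2 and Sec11a thus lie wholly or mostly within the annotated genes. Which start these cells use was not measured.

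At the Sec61 channel log2 changes lay on both sides of 0, with a median log2 change of 0.04, which was -0.0098 without the third Calr KO library and -0.0081 without the second control. The channel is made of a large pore subunit, Sec61a1 or Sec61a2, and the small subunits Sec61b and Sec61g. Sec61a1, on the minus strand of chromosome 6 (88503579 to 88518905), had 2514, 2483 and 2698 normalised counts in Calr KO libraries, against 2448, 2097 and 1944 in control libraries. The groups did not overlap, but the first control library lay close to the Calr KO libraries. The log2 change was 0.25 (SE 0.08, 95% interval 0.08 to 0.43, limma adjusted p = 0.381), and it was 0.34 without that control library and 0.18 without the third. Its adjusted p lay between 0.0914 and 0.636 over the alternatives. The paralog Sec61a2 had 997, 944 and 1032 normalised counts in Calr KO libraries, against 1001, 926 and 979 in control libraries, which overlap, with a log2 change of 0.03 (limma adjusted p = 0.917). The log2 ratio of Sec61a2 over Sec61a1 was -1.37 ± 0.03 in Calr KO and -1.15 ± 0.15 in control libraries (SD, n = 3 each), a difference of -0.22 (two-sided exact permutation test p = 0.1, adjusted 0.133). About 19.9% of the annotated exon bases of Sec61a2 overlap exons of Nudt5 on the other strand. The sources used here do not say whether counting used strand, so reads of that overlap may be shared.

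Neither small subunit passed the test. Sec61b, a small subunit held by a single anchor at its end, had 1202, 1114 and 1183 normalised counts in Calr KO libraries, against 1357, 1213 and 1258 in control libraries. It was the only one of the 35 genes with every Calr KO library below every control (log2 change -0.13, 95% interval -0.26 to 0.01, limma adjusted p = 0.588). Sec61g had 904, 859 and 1007 normalised counts in Calr KO libraries, against 997, 765 and 940 in control libraries, with a log2 change of 0.04 (limma adjusted p = 0.943).

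Sec62 and Sec63 assist chains that open the channel poorly, and Sec63 carries the J domain that recruits BiP. Sec63 had 1922, 1904 and 1794 normalised counts in Calr KO libraries, against 1795, 1658 and 1672 in control libraries, and the third Calr KO library was level with the first control library. Its log2 change was 0.13 (SE 0.05, 95% interval 0.02 to 0.25, limma adjusted p = 0.505). Sec62 averaged 1920 ± 89.8 normalised counts in Calr KO libraries, against 2046 ± 120 in control libraries (SD, n = 3 each), a log2 change of -0.09 (limma adjusted p = 0.713). Tram1, a membrane protein that contacts chains entering the bilayer, had 2169, 1957 and 2074 normalised counts in Calr KO libraries, against 1836, 1886 and 1958 in control libraries, with the second Calr KO library level with the third control. The log2 change was 0.13 (SE 0.05, limma adjusted p = 0.529), against -0.03 (limma adjusted p = 0.913) for its paralog Tram2, which had 968, 911 and 976 normalised counts in Calr KO libraries, against 952, 992 and 973 in control libraries. The log2 ratio of Tram2 over Tram1 was -1.12 ± 0.04 in Calr KO and -0.96 ± 0.04 in control libraries (SD, n = 3 each), without overlap, a difference of -0.16 (two-sided exact permutation test p = 0.1, adjusted 0.133).

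TRAP, whose 4 membrane subunits are encoded by Ssr1 to Ssr4, had 4 of 4 log2 changes above 0, against 50.1% of all tested genes. The 4 changes lay between 0.03 and 0.07, with a median of 0.06. Ssr3 was the most abundant gene of the 35 per length. It had 10639, 10467 and 10810 normalised counts in Calr KO libraries, against 10371, 10187 and 10159 in control libraries. The groups did not overlap, but the mean differed only 1.04-fold (log2 change 0.06, SE 0.03, 95% interval -0.0023 to 0.11, limma adjusted p = 0.580). Ssr2 had 3326, 3190 and 3372 normalised counts in Calr KO libraries, against 3143, 3076 and 3167 in control libraries, also without overlap (log2 change 0.07, limma adjusted p = 0.626). Ssr1 and Ssr4 overlapped between groups, with adjusted p values of 0.873 and 0.791.

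SRP and its receptor stayed close to the controls, with 4 of 8 log2 changes above 0, against 50.1% of all tested genes. The median was 0.00066. It was below 0 with total scaling (-0.0016), upper-quartile scaling (-0.0100) and voom weights (-0.0016). It was also below 0 without the first Calr KO library (-0.012) and without the third control (-0.0018). Srp72 and Srp68 form the heterodimer that holds the SRP RNA. Srp72 had 4441, 4478 and 4452 normalised counts in Calr KO libraries, against 4145, 3953 and 4525 in control libraries, with 2 of the controls below all Calr KO libraries and the third above them (log2 change 0.09, 95% interval -0.02 to 0.19, limma adjusted p = 0.670). Srp68 had a log2 change of -0.0066, with a sign that depends on the scaling. Srp19, which prepares the RNA for Srp54, had 548, 529 and 539 normalised counts in Calr KO libraries, against 514, 472 and 505 in control libraries, without overlap (log2 change 0.12, 95% interval -0.04 to 0.27, limma adjusted p = 0.700).

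Srp54a encodes the GTPase that binds the signal sequence. It had 2098, 2429 and 2373 normalised counts in Calr KO libraries, against 2655, 2166 and 2499 in control libraries, with a log2 change of -0.08 (limma adjusted p = 0.817). The mouse genome carries the near-identical copies Srp54b and Srp54c, and counting may have split reads among the 3 genes, which makes each value alone uncertain. Summed over the 3 genes, the libraries held 5764, 5706 and 6022 normalised counts in Calr KO libraries, against 6289, 5833 and 6025 in control cells, which overlap. The Alu-domain proteins Srp9 and Srp14, which slow translation during targeting, had log2 changes of 0.03 and -0.02 (limma adjusted p = 0.861 and 0.958). The receptor subunits Srpr and Srprb had log2 changes of -0.05 and 0.0079 (limma adjusted p = 0.856 and 0.979), and the sign of Srprb reversed with upper-quartile scaling. About 20.7% of the annotated exon bases of Srprb overlap Gm20425 on the same strand.

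Tail-anchored proteins are handed over by Sgta, a cytosolic chaperone adaptor, and Get4, a part of the BAG6 complex that receives them. Get4 had 569, 638 and 584 normalised counts in Calr KO libraries, against 544, 499 and 544 in control libraries, without overlap (log2 change 0.17, SE 0.08, 95% interval 0.0031 to 0.34, limma adjusted p = 0.550). Sgta had 1497, 1502 and 1609 normalised counts in Calr KO libraries, against 1516, 1486 and 1647 in control libraries, with a log2 change of -0.01 (limma adjusted p = 0.971).

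The EMC held the least reproducible genes of the 35. Of its 8 log2 changes 7 were above 0, against 50.1% of all tested genes. None of the 8 genes was called, against 0.280% of all tested genes. The median change of the EMC was 0.04, and it was -0.0048 without the first Calr KO library and -0.02 without the first control. The median coefficient of variation was 4.59% over the Calr KO libraries and 11.8% over the controls for its genes, against 4.46% and 4.91% for the 35 genes together. Emc3 and Emc6 form the core that inserts helices into the membrane. Emc6 had 769, 570 and 607 normalised counts in Calr KO libraries, against 441, 745 and 769 in control libraries, a coefficient of variation of 16.3% and 28.1%. Emc8, a cytosolic cap subunit, had 1171, 853 and 967 in Calr KO and 670, 1055 and 1098 in control libraries, 16.2% and 25.0%. Both genes were lowest in the same control library, the first, and highest in the first Calr KO library. Their spread within each group was wider than the difference between the groups. Emc10, a lumenal subunit, had coefficients of 14.9% and 11.8%.

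Emc1, the largest lumenal subunit, had 1137, 1179 and 1283 normalised counts in Calr KO libraries, against 1550, 1348 and 1222 in control libraries. Its log2 change of -0.19 was the lowest among the 35 genes (SE 0.09, 95% interval -0.39 to 0.0060, limma adjusted p = 0.578), and the groups overlapped. Without the first control library it was -0.099, and Emc6, at -0.23, was then lower. About 29.3% of its annotated exon bases overlap the non-coding gene 2700016F22Rik on the other strand. Emc3 had 532, 512 and 524 normalised counts in Calr KO libraries, against 508, 442 and 504 in control libraries, without overlap (log2 change 0.11, limma adjusted p = 0.749). Without the second control library the log2 change of Emc3 was 0.045. Emc2, Emc4 and Emc7 had log2 changes of 0.07, 0.05 and 0.02 (limma adjusted p = 0.867, 0.890 and 0.957). Emc9, the paralog that can take the place of Emc8, was rare, with 15.3, 14.9 and 17.7 normalised counts in Calr KO libraries, against 23.8, 31.6 and 18.3 in control libraries (log2 change -0.56, SE 0.30, limma adjusted p = 0.642). The log2 ratio of Emc9 over Emc8 was -5.87 ± 0.26 in Calr KO and -5.20 ± 0.56 in control libraries (SD, n = 3 each), which overlap (two-sided exact permutation test p = 0.3, adjusted 0.3).

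**Figure D3:**
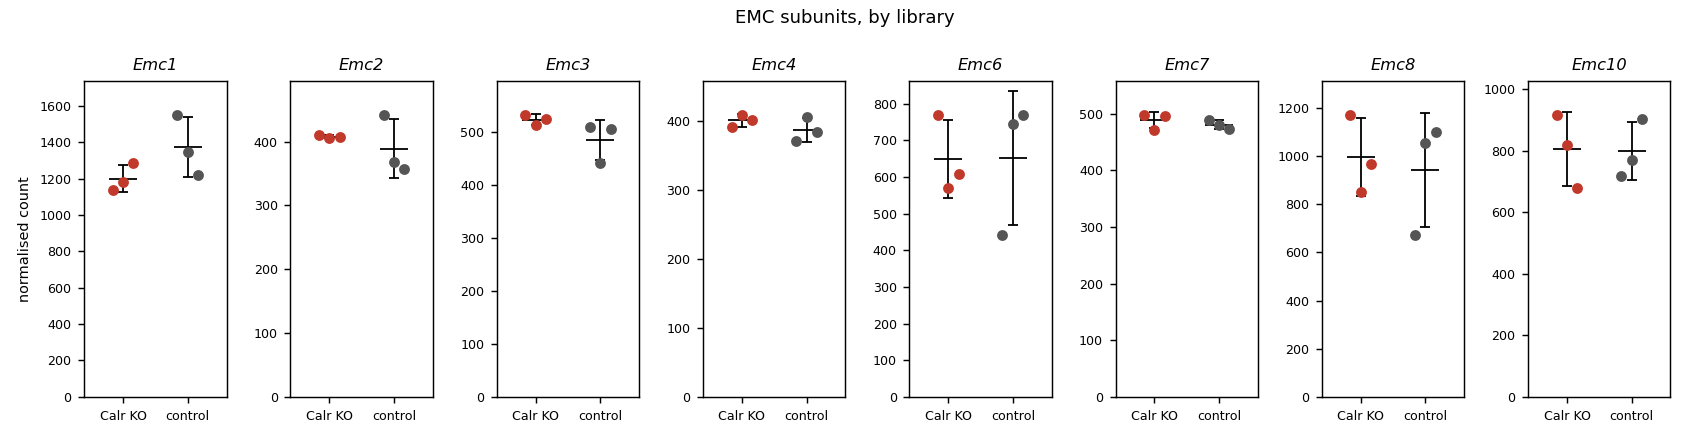
Normalised count of the 8 EMC genes in each library, with Calr KO on the left and control on the right of each panel, and the mean and SD (n = 3 each). Emc6 and Emc8 share a low first control library, at 441 and 670 normalised counts. Emc2, Emc3, Emc4 and Emc7 vary little in Calr KO libraries, while Emc2 has a coefficient of variation of 11.8% in the controls.

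Levels per length set the genes of a complex against each other. Counts were divided by the length of all annotated exons of the gene in kilobases, which is longer than most single transcripts, so these levels are approximate. On this scale the 35 genes lay between the 35.9 and 98.4 percentiles of 12974 tested genes, with a median percentile of 85.9. Ssr3 averaged 2550 ± 41.1 normalised counts per kb in Calr KO and 2454 ± 27.6 in control libraries, and Ssr2 1768 ± 51.0 and 1679 ± 25.4 (SD, n = 3 each). In signal peptidase, Spcs3 was the highest with 1073 ± 61.3 per kb in Calr KO and 909 ± 23.3 in control libraries. The catalytic subunits were the lowest of that complex, Sec11a with 114 ± 2.84 and 106 ± 1.14 per kb and Sec11c with 59.1 ± 3.78 and 43.0 ± 4.92 per kb (SD, n = 3 each). Sec61b led the channel genes with 918 ± 36.4 per kb in Calr KO and 1004 ± 57.8 in control libraries, while Sec61a1 had 381 ± 17.3 and 321 ± 38.4. In the SRP group Srp72 had 780 ± 3.38 per kb in Calr KO and 736 ± 50.9 in control libraries, close to its partner Srp68 with 685 ± 3.97 and 688 ± 18.5. EMC genes ran from 83.8 ± 2.45 per kb in Calr KO and 82.5 ± 1.44 in control libraries for Emc7 to 459 ± 74.9 and 461 ± 129 for Emc6.

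**Figure D4:**
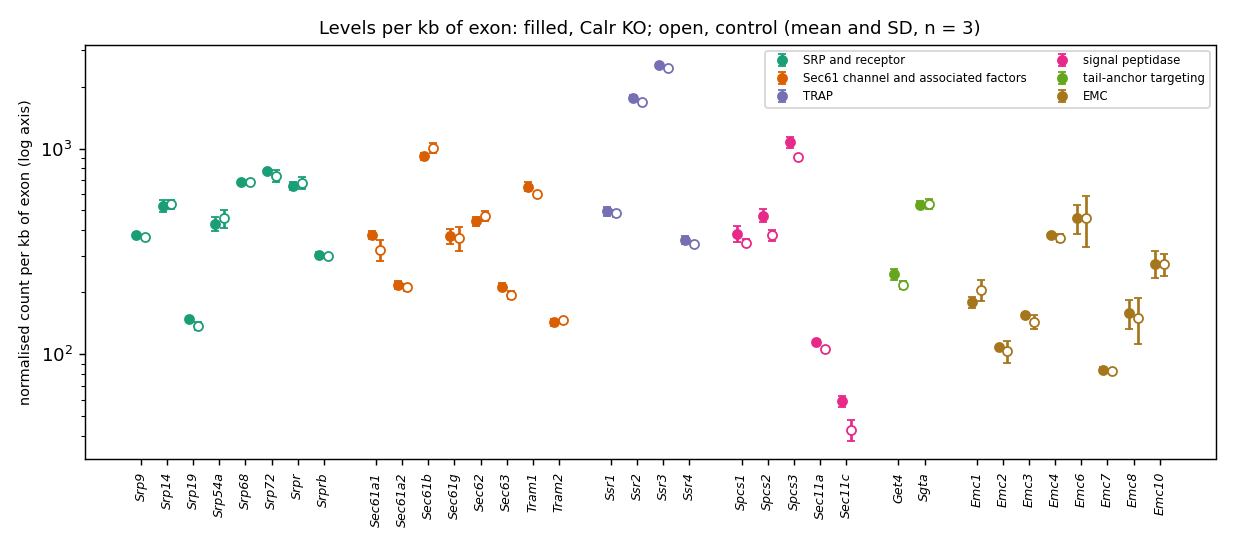
Normalised count per kb of annotated exon for the 35 genes, on a log axis, with filled points for Calr KO and open points for control (mean and SD, n = 3 each). Ssr3 is the highest at 2550 and 2454 per kb and Sec11c the lowest at 59.1 and 43.0 per kb.

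Other genes of targeting and insertion were looked at from a list of 18, of which 17 were matched by symbol and tested. None of the 17 passed the test over all genes with limma, against 0.280% of all tested genes, and none passed with voom weights. At an unadjusted p under 0.05, 3 of the 17 had higher and 1 had lower values, against 4.60% and 4.28% of all tested genes. The log2 change was above 0 in 6 of the 17, against 50.1% of all tested genes, and the median was -0.03. Get1, a membrane receptor for tail-anchored proteins, had 517, 484 and 442 normalised counts in Calr KO libraries, against 297, 287 and 391 in control libraries, without overlap (log2 change 0.58, SE 0.13, limma adjusted p = 0.174). It passed without the third control library, with a log2 change of 0.72 and an adjusted p of 0.0485, in a range of 0.0485 to 0.480 over the alternatives. Nomo1, a subunit of the translocon for multi-spanning proteins, had 2557, 2674 and 2766 in Calr KO and 3026, 2920 and 2904 in control libraries (log2 change -0.15, limma adjusted p = 0.352). Ccdc47 of the same translocon had 2498, 2170 and 2395 normalised counts in Calr KO libraries, against 2139, 2144 and 2115 in control libraries (log2 change 0.14, limma adjusted p = 0.509). Tmco1, another of its subunits, had 694, 657 and 643 normalised counts in Calr KO libraries, against 604, 577 and 612 in control libraries (log2 change 0.15, limma adjusted p = 0.547). The groups did not overlap for these 4 genes, with Nomo1 lower and the others higher in Calr KO libraries. Over all 17 genes, 3 were higher and 3 lower without overlap, against 7.57% and 7.28% of all tested genes.

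Genes of BiP and its partners and of oligosaccharyltransferase gave a scale for these values. Of 7 genes of BiP and its partners, 4 rose and 0 fell, against 0.197% and 0.0833% of all tested genes, with a median log2 change of 0.47. The count that rose was 3 without the first or the third Calr KO library and without the first or the second control library. Hspa5, which encodes BiP, had 29688, 27658 and 31030 normalised counts in Calr KO libraries, against 21288, 19645 and 21362 in control libraries (log2 change 0.50, limma adjusted p = 0.0014). Hyou1, a nucleotide exchange factor of BiP, had 6667, 6035 and 6901 normalised counts in Calr KO libraries, against 4642, 4583 and 4885 in control libraries (log2 change 0.47, limma adjusted p = 0.0047). Dnajc3, a J-domain cochaperone, had 1538, 1322 and 1473 normalised counts in Calr KO libraries, against 957, 895 and 961 in control libraries (log2 change 0.62, limma adjusted p = 0.0049). All 3 genes were higher in every Calr KO library than in any control. Dnajb11 was the other gene that rose (log2 change 0.52, limma adjusted p = 0.0116). Sil1, Dnajb9 and Dnajc1 did not pass, with log2 changes of 0.17, 0.07 and -0.16 (limma adjusted p = 0.720, 0.827 and 0.840). Of 11 oligosaccharyltransferase genes, whose enzyme glycosylates chains in the ER, 2 rose and 0 fell, with a median of 0.10. The shares of all tested genes were again 0.197% and 0.0833%. Rpn1, a subunit near the ribosome, rose, with 4500, 4344 and 4799 normalised counts in Calr KO libraries, against 3520, 3218 and 3541 in control libraries (log2 change 0.41, limma adjusted p = 0.0116). Magt1, an oxidoreductase subunit, rose as well, with 2269, 2336 and 2128 normalised counts in Calr KO libraries, against 1828, 1709 and 1806 in control libraries (log2 change 0.33, limma adjusted p = 0.0364). Stt3a, a catalytic subunit, had 3535, 3680 and 3361 normalised counts in Calr KO libraries, against 3342, 3209 and 2951 in control libraries without overlap, but did not pass (log2 change 0.16, limma adjusted p = 0.460). With 1 variance prior fitted to genes of all levels, none of these passed. The call of Rpn1 was lost without the first or the third Calr KO library, with an adjusted p of at most 0.0654, and that of Magt1 without any 1 of the 6 libraries, with an adjusted p of at most 0.178, and with the replicate block, with an adjusted p of 0.112. The mean log2 level relative to the control mean was 0.26 to 0.38 in Calr KO and -0.04 to 0.05 in control libraries for BiP and its partners, 0.08 to 0.14 against -0.04 to 0.02 for oligosaccharyltransferase, 0.22 to 0.29 against -0.08 to 0.06 for signal peptidase and 0.0043 to 0.02 against -0.04 to 0.03 for SRP and its receptor. The differences between these groups of genes were not tested.

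**Figure D5:**
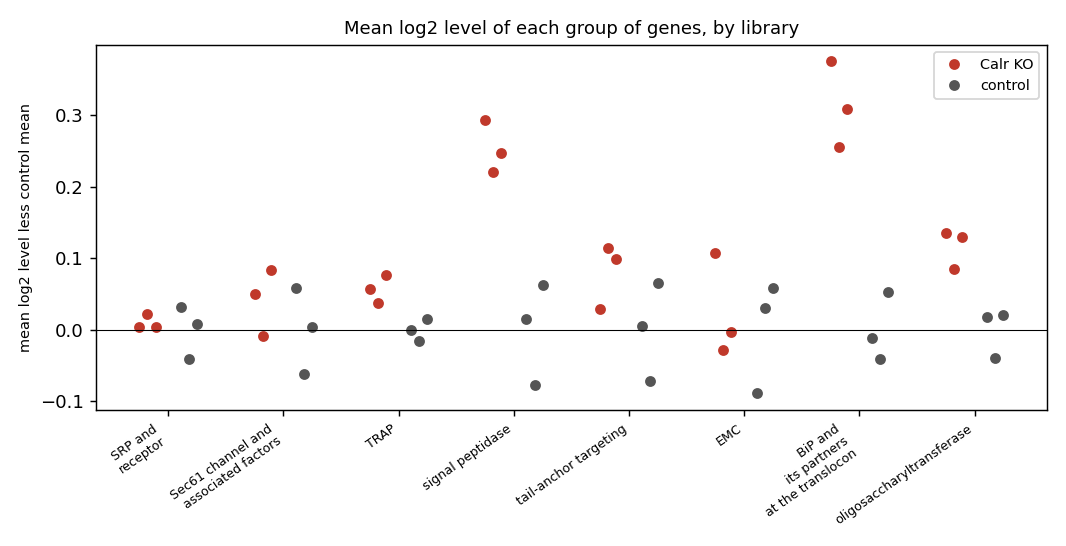
Mean log2(value + 1) of the genes of each complex in each library, less the mean of the 3 control libraries, with Calr KO points left of control points. Signal peptidase, at 0.22 to 0.29 in Calr KO libraries, is the highest of the groups of targeting and translocation genes. In the same libraries BiP and its partners lie at 0.26 to 0.38 and oligosaccharyltransferase at 0.08 to 0.14. The differences between groups of genes were not tested.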

How the data were processed

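The deposited table gives a signal per gene and library, which the authors made by normalising gene counts with DESeq2, as the labels state. Salmon 0.14.1, STAR 2.6.1d, mm10 and DESeq2 1.34.0 are listed in the submitters' processing notes, without roles. The annotation release and the strand setting are not given in the sources used here. Columns were matched to samples by the names in the labels. Values of 100 to 1000 reads were whole within 0.02 in at most 4.31% of cases, so no count model was run and the number of libraries limits the precision.

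Genes with a mean of at least 10 over 6 libraries were tested two-sided by limma 3.58.1 (R 4.3.3) on log2(value + 1). The variance prior was a trend on the mean, and p-values were adjusted by Benjamini-Hochberg over all 13199 genes, with 0.05 as the threshold. A gene rose or fell where its adjusted p was under 0.05. Intervals are at 95%. The fit was tested on simulated data. The log2(value + 1) scale understates changes of low genes. Ratios of 4 paralog pairs were compared by an exact permutation test. Members, lists, pairs and motifs were chosen with earlier results of these data known, so lists carry counts and medians and no p. Full values are given for the 2 smallest adjusted p values and the highest level per kb in each complex, the paralog pairs, 4 further pathway genes and 3 genes of each comparison list. Other genes are named to account for every member, for the rest of the BiP list or for shared reads. Arxes1 and Arxes2 were named after their values were seen. Positions and exon lengths are from GENCODE M21 on GRCm38, with 12974 of 13199 tested genes matched by symbol, and promoters from RefSeq. Alternatives were other pseudocounts, filters, scalings and variance priors, voom weights, a replicate block and leaving out each library.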

Additional observations from a re-analysis of the deposited data

How the results depend on the processing

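None of the 35 genes passed in any of the 18 alternative fits, where the smallest adjusted p lay between 0.0679 (replicate block, Spcs2) and 0.441 (single variance prior). The 6 medians by complex moved by less than the spread between libraries in each of these fits. No paralog difference changed direction with other pseudocounts or scalings or without a library. Except for Emc9 over Emc8, the ratios did not overlap, so leaving out a library could not reverse them. Scaling a whole library nearly cancels in a ratio. Over all tested genes, 1 gene rose and 1 fell with a single variance prior. With the replicate number as a block 5 genes fell. Same-numbered libraries had correlations of deviations between -0.06 and 0.0014, and the 3 Calr KO libraries correlated best with control libraries of other numbers. No pairing by number was seen in these values, though 3 libraries per group cannot settle whether there was one. Without each library in turn, 14 to 25 genes rose and 4 to 9 fell, against 26 and 11 with all libraries. Log2 changes near 0 changed sign with the scaling for Srp68 (0.0018, quantile normalization), Srprb (-0.0027, upper-quartile), Emc10 (-0.0029, upper-quartile) and Srp54b (0.0055, quantile normalization). Without each library in turn, changes of both signs were found for Srp14 (-0.070 to 0.026), Srp68 (-0.019 to 0.016), Srpr (-0.083 to 0.0070), Srprb (-0.015 to 0.028), Sec61g (-0.071 to 0.12), Sgta (-0.046 to 0.032), Emc6 (-0.23 to 0.17), Emc8 (-0.12 to 0.23), Emc10 (-0.092 to 0.13) and Srp54b (-0.059 to 0.058). The cause was not tested.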
